A study of Mus musculus with 9 samples.

Results

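The 8 genes described here encode the enzymes that write, copy and remove DNA methylation in the mouse: the methyltransferases Dnmt1, Dnmt3a and Dnmt3b, the cofactors Dnmt3l and Uhrf1, and the dioxygenases Tet1, Tet2 and Tet3. They were chosen by name, and all 8 were found among the 13499 genes of the authors' table. RNA was sequenced from cultured C57BL/6 mouse embryonic stem (ES) cells, grown in LIF medium on gelatine and sorted on a cytometer for GFP-Myc or EYFP fluorescence. Which of these reporters marks a given library is not stated, and neither is the number of clones. The sort gave 3 populations, named Low, Medium and High by Myc level, each with 3 libraries described as biological replicates, so that RNA could be compared across Myc levels. No treatment, genotype or age beyond this is given, and all 9 libraries share strain and culture.

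DNA methylation places a methyl group on cytosine, mostly where a guanine follows. Dnmt3a and Dnmt3b place new marks, and Dnmt3l, which has no catalytic activity of its own, stimulates them. Dnmt1 copies the marks to the new strand after replication, and Uhrf1 brings it there by binding half-methylated DNA. The TET enzymes oxidise 5-methylcytosine, and base excision repair or replication then removes the product. RNA of each of these genes was found in the ES cells used here, that of Tet3 at a low level. The methylation level of ES cells varies with culture conditions.

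Promoter stretches are shown where they hold a hexamer bound by Myc, or for 2 genes that rose and differ in CG content. RefSeq's GRCm38.p6 table holds 15 start windows for the 8 genes, each with 250 bases before and 50 after a transcript start. Dnmt3a and Dnmt3l each have a start inside the gene with the hexamer CACGTG, the E-box that Myc and Max bind, upstream of it. These stretches lie in introns of the annotation, on the plus strand, at chr12:3891642-3891691 and chr10:78049776-78049825. The E-box, in capitals, begins 80 bases before the Dnmt3a start and 44 before the Dnmt3l start.
Dnmt3a internal start: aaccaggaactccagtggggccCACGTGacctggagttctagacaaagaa
Dnmt3l internal start: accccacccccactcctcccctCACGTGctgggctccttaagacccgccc
The hexamer, which reads the same on both strands, was in 2 of the 15 windows and in 7.15% of all 32851 windows of the same length. No window of Tet2, Tet1, Uhrf1, Dnmt1, Dnmt3b or Tet3 held it, nor did the other windows of Dnmt3a and Dnmt3l. Counts per gene do not show which start was used, and a match is a description of the sequence. The windows also differ in CG dinucleotides, the site of methylation. The Tet2 window holds 57 of them, and 0.152% of all windows hold as many; the 3 windows of Dnmt3l hold 3 to 6, where the median window holds 7. The 100 bases before each start show this, with CG in capitals, for Tet2 (chr3:133544391-133544490, minus strand) and for the first start of Dnmt3l (chr10:78042187-78042286, plus strand).
Tet2: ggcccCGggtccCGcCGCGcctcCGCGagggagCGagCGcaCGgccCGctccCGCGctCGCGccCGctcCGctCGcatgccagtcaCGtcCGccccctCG
Dnmt3l: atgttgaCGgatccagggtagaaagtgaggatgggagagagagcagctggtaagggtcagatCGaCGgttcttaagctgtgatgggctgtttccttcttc
The Tet2 stretch holds 20 CG and the Dnmt3l stretch 3.

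All levels below are normalized counts from the authors' table, similar in scale to CPM, and mean ± SD is over n = 3 libraries. Recovered reads ran from 11114936 to 16755566 per library. Myc RNA was 24.2 to 27.6 in Low, 65.5 to 70.0 in Medium and 101 to 112 in High, which checks the labels. The ES cell markers were present in every library, with a summed level over 9 markers of 4754 to 6421 in Low and 5773 to 6566 in High. Of these 9 markers 3 rose and 0 fell in High against Low (limma, adjusted p under 0.05). Markers of other cell types also moved with the sort. The 9 trophoblast markers analysed, of 13, summed to 491 to 594 in Low, 243 to 263 in Medium and 153 to 159 in High, with Rhox6 at 128 ± 19.4 and Rhox9 at 120 ± 18.7 in Low, and Eomes at 4.24 ± 0.0434 there and 4.98 ± 1.17 in High. Cdx2, Elf5, Hand1 and Plac1 had no entry by name in the authors' table. Markers missing from the counts below had none either, among them Gata6, Gata4, Sox17, Foxa2 and Pdgfra of primitive endoderm. The 7 primitive endoderm markers analysed, of 12, summed to 354 to 434 in Low and 611 to 648 in High. In High against Low 4 of these rose and 1 fell (limma, adjusted p under 0.05), while 1 trophoblast marker rose and 7 fell. Of all genes 13.8% rose and 14.6% fell. The 9 fibroblast markers analysed, of 12, summed to 523 to 981 in Low and 1174 to 1507 in High, and 3 rose and 0 fell. Most of the sum was Fn1 (602 ± 234 and 1059 ± 164), while Dcn stayed at 0.959 ± 0.209 and 0.807 ± 0.0814. The 8 primed epiblast markers summed to 223 to 255 in Low and 279 to 290 in High, but 4 of them fell and 1 rose: Fgf5 went from 9.26 to 2.42 and Otx2 from 22.9 to 7.54. Of 9 two-cell-like markers 2 were analysed, and Zscan4f went from 1.88 to 0.110. Eif1a, which held most of the sum, went from 250.5 to 299 and is not read here as a sign of two-cell-like cells. All 13499 genes of the authors' table reached 1 CPM in at least 3 libraries. That each marker analysed did so is therefore a property of the table, not a result about the markers. The part of these cell types in the results below was not tested, and in sorted bulk RNA fewer cells of a type and less RNA per cell cannot be told apart.

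A second measure that moved between libraries was the balance of long and short transcripts. Genes with transcripts over 4729 nt, set against those of at most 2100 nt, differed by a median log2 value of 0.28, -0.59 and -0.27 in Low replicates 1 to 3, relative to each gene's mean. The same difference was 0.30, -0.05 and 0.25 in Medium and 0.25, -0.06 and -0.07 in High. The methylation genes are mostly long. The longest annotated transcript is 14369 nt for Tet1, 10904 nt for Tet3, 9685 nt for Dnmt3a, 9179 nt for Tet2 and 5870 nt for Dnmt1, against a median of 3288 nt over all genes; Dnmt3b, Uhrf1 and Dnmt3l have 4320, 3586 and 1822 nt. Within Low, the log2 deviation of replicate 1 from the population mean was 0.60 for Tet3, 0.58 for Tet1, 0.46 for Tet2 and 0.44 for Dnmt1, but 0.11 for Dnmt3a and -0.13 for the short Dnmt3l. Replicate 2 deviated the other way, at -0.39 for Tet3 and -0.34 for Tet1. Results are therefore given with and without a correction for the length trend, except the ratios between enzymes, which are uncorrected. Single libraries are left out where this changes the results. The correction takes the longest transcript, which for Dnmt3a is 1 of 13 coding transcripts.

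**Figure D1:**
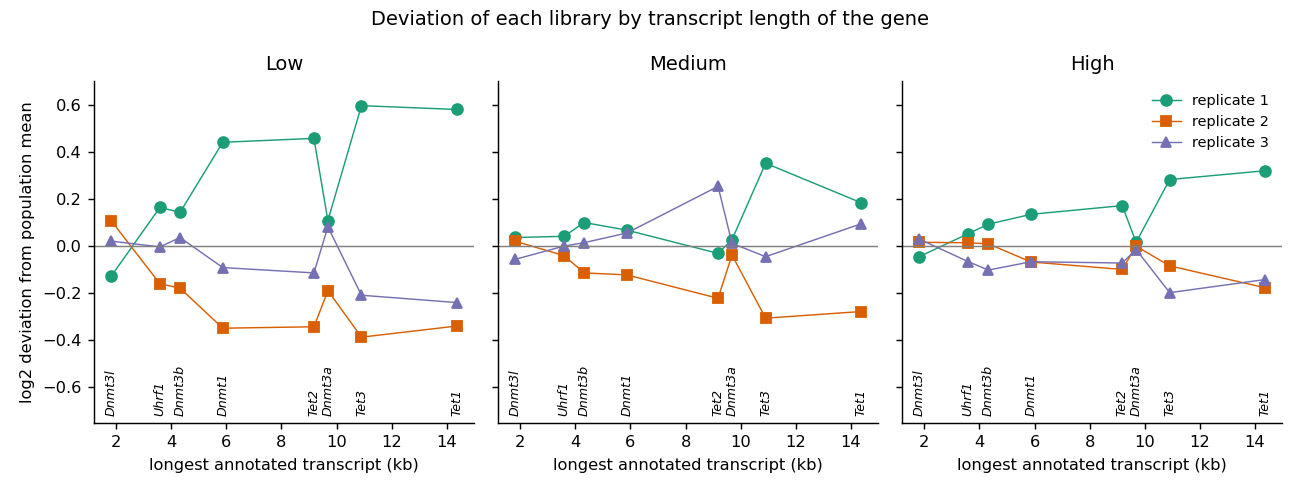
Log2 deviation of each library from the mean of its population (y axis) against the longest annotated transcript of the gene in kb (x axis), in 1 panel per population with 1 line per replicate. In Low, replicate 1 lies highest for the long Tet genes and Dnmt1 and lowest for Dnmt3l, while Dnmt3a deviates less than the other long genes.

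The enzymes spanned a wide range of RNA levels. Per kilobase of longest transcript, Dnmt3l had the highest level in High, at 273 ± 7.40 normalized counts per kb, followed by Uhrf1 at 176 ± 7.31 and Dnmt3b at 171 ± 11.5. Dnmt1 had 76.5 ± 6.32 per kb, Dnmt3a 51.1 ± 0.549, Tet1 34.8 ± 7.02, Tet2 12.2 ± 1.31 and Tet3 0.784 ± 0.158. In High only Uhrf1 and Dnmt3b, neighbours in this order, overlapped between libraries. In Low the order was the same except that Dnmt3b and Uhrf1 changed places, still overlapping, and Dnmt3a (22.7 ± 2.52 per kb) also overlapped with Tet1 (19.6 ± 7.38). The order depends on the length used. Unscaled High means were 500 for Tet1, 495 for Dnmt3a and 498 for Dnmt3l, so the order of these genes follows their lengths. Their median coding transcripts are 567, 814 and 1554.5 nt, and by those lengths Dnmt3l would rank below Tet1 and Dnmt3a. Tet3 rested on 62 to 222 reads per library, and every other gene of the set on at least 382.

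Between High and Low, 5 of the 8 genes rose and 0 fell: Tet2 2.50-fold, Dnmt3a 2.25-fold, Tet1 1.77-fold, Dnmt3l 1.52-fold and Uhrf1 1.30-fold, as ratios of mean level. Dnmt1, Dnmt3b and Tet3 did not pass the test (limma, Benjamini-Hochberg adjusted p under 0.05 over all genes). Over all 13499 genes 28.4% changed, 13.8% as higher and 14.6% as lower. The median log2 fold change of the 8 genes was 0.50, against 0.00 over all genes. In 6 of the 8 genes every High library lay above every Low library, which 20.2% of all genes did.

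**Figure D2:**
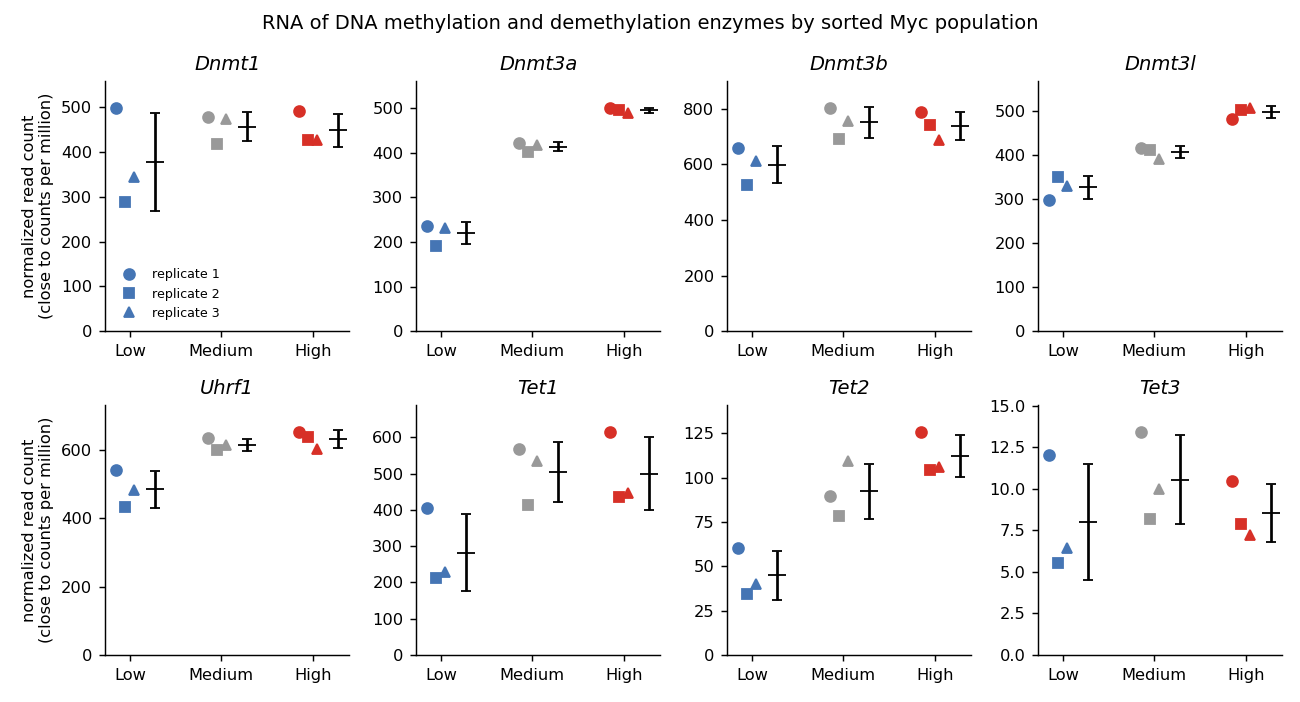
Normalized read count (y axis, close to CPM) of each gene in each library (points, shaped by replicate) for the Low, Medium and High populations, with mean and SD beside them. Dnmt3a, Dnmt3b, Dnmt3l, Uhrf1, Tet1 and Tet2 have all High libraries above all Low ones; Dnmt1 and Tet3 overlap.

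Among the de novo enzymes, Dnmt3a (ENSMUSG00000020661, chromosome 12 from 3806007 to 3914443 on GRCm38) changed most. Its level was 236, 192 and 232 in Low replicates 1 to 3, 421, 402 and 416 in Medium and 500, 494 and 490 in High. The populations did not overlap, and the High libraries lay close together, with an SD of 5.31 around 495. High exceeded Low by a log2 fold change of 1.17 ± 0.09 (SE; adjusted p = 2.38e-05), 0.89 after the length correction (adjusted p = 0.000236), and adjusted p was at most 0.000629 over 28 alternatives.

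Dnmt3l, the catalytically inactive cofactor (chromosome 10 from 78041947 to 78063622), had 299, 352 and 331 in Low, 417, 412 and 391 in Medium and 483, 504 and 508 in High. Its populations were also fully separated, and the replicate with the lowest level in Low was the one with the highest level for the long genes. Its log2 fold change was 0.61 ± 0.08 (adjusted p = 0.000584) and 0.69 after the length correction, with adjusted p of at most 0.00468 over 28 alternatives. Dnmt3l overlaps the opposite-strand gene Aire, at 10.2 in Low and 13.9 in High, and whether the authors' counts use strand is not given.

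Dnmt3b (chromosome 2 from 153649450 to 153687730) had the highest unscaled level of the set: 659, 527 and 612 in Low, 803, 692 and 757 in Medium, and 787, 742 and 687 in High. All High libraries lay above all Low libraries, by a narrow margin. A log2 fold change of 0.31 ± 0.11 missed the threshold (adjusted p = 0.0551). With the replicate block, which takes same-numbered libraries as pairs, adjusted p was 0.0158; it was 0.0126 when Low replicate 1 was left out and 0.00990 with the length correction. Over 28 alternatives it ran from 0.000541 to 0.172, and 10 passed. The lowest value came from library weights, a fit that did not converge.

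Of the maintenance pair, Uhrf1 (chromosome 17 from 56303321 to 56323486) rose and Dnmt1 (chromosome 9 from 20907209 to 20959888) did not pass. Uhrf1 had 540, 431 and 481 in Low, 633, 598 and 615 in Medium, and 653, 636 and 602 in High. Low stood below the other populations without overlap, and Medium and High overlapped. Its log2 fold change of High against Low was 0.38 ± 0.09 (adjusted p = 0.0133). The call was lost narrowly without High replicate 1 (adjusted p = 0.0523) or 2 (0.0510), without Low replicate 3 (0.0512) and with quantile normalization (0.0514). The lowest adjusted p of 28 alternatives, 5.27e-06, came from library weights, a fit that did not converge.

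Dnmt1 had 499, 288 and 345 in Low, 478, 419 and 474 in Medium, and 492, 427 and 428 in High. Low replicate 1 was the highest of all 9 libraries, and the populations overlapped. The log2 fold change was 0.28 with a 95% confidence interval from -0.10 to 0.67 (adjusted p = 0.247). Without Low replicate 1 it was 0.50 (adjusted p = 0.00384), and after the length correction 0.17 (adjusted p = 0.149). Over 28 alternatives adjusted p ran from 0.000269, with library weights that did not converge, to 0.650.

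Of the TET dioxygenases, Tet2 (chromosome 3 from 133463679 to 133545139) rose most. It had 60.3, 34.2 and 40.2 in Low, 89.4, 78.2 and 109 in Medium, and 126, 104 and 106 in High. Low was separate from both other populations, and Medium replicate 3 exceeded High replicates 2 and 3. The log2 fold change of High against Low was 1.34 ± 0.20 (adjusted p = 0.0010) and 1.07 after the length correction, and adjusted p was at most 0.00684 over 28 alternatives.

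Tet1, the most abundant TET gene (chromosome 10 from 62804570 to 62908996), had 404, 213 and 229 in Low, 568, 412 and 534 in Medium, and 616, 436 and 447 in High. Replicate 1 was the highest library in each population, and the lowest High library exceeded the highest Low library only narrowly. In log2 terms High exceeded Low by 0.87 ± 0.24 (adjusted p = 0.0239), and 0.41 after the length correction (adjusted p = 0.000997), so its size depended on the correction by more than its call did. The median coding transcript of Tet1 is 567 nt; with that length in the correction the change was 0.94 (adjusted p = 0.0397). The call was lost without High replicate 1 (adjusted p = 0.0890) and without Low replicate 2 (0.0698) or 3 (0.0947). The lowest adjusted p of 28 alternatives, 2.02e-06, came from library weights, a fit that did not converge.

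Tet3 (chromosome 6 from 83362373 to 83459084) was scarce, at 12.0, 5.55 and 6.44 in Low, 13.5, 8.18 and 10.02 in Medium and 10.5, 7.91 and 7.24 in High. Replicate 1 was again highest in each population, and all populations overlapped. For High against Low the log2 fold change was 0.14 with a 95% confidence interval from -0.45 to 0.73 (adjusted p = 0.732), and -0.20 after the length correction, so no direction is given. Over 28 alternatives adjusted p ran from 0.0340, with library weights that did not converge, to 0.998.

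For Dnmt3a, Uhrf1, Tet1 and Tet2, most of the difference from Low was already present in Medium. This comparison shares its Low libraries with the one above, so the values stand side by side and are not separate evidence. For Medium against Low, Tet2 had a log2 fold change of 1.05 ± 0.20 (adjusted p = 0.0103), Dnmt3a 0.91 ± 0.09 (0.000424), Tet1 0.89 ± 0.24 (0.0421), Uhrf1 0.35 ± 0.09 (0.0394) and Dnmt3l 0.32 ± 0.08 (0.0349), so 5 of 8 rose and 0 fell. Over all genes 12% changed, 6.14% as higher and 5.87% as lower. In 6 of the 8 genes every Medium library lay above every Low library, as in 14.5% of all genes. After the length correction these values were 0.71, 0.55, 0.36, 0.34 and 0.44, and all 5 still passed. Dnmt1, Dnmt3b and Tet3 had 0.31, 0.33 and 0.40 and did not pass (adjusted p = 0.246, 0.0703 and 0.320).

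The number of calls for Medium against Low rested on single libraries. Leaving out each library in turn gave between 1 and 8 of the 8 genes, and between 527 and 5123 of all 13499 genes. Without Low replicate 1 all 8 passed, beside 5123 of all genes. Without Low replicate 3 only Dnmt3a passed, with Tet2 at adjusted p = 0.0524, beside 527 of all genes. Without Low replicate 2 there were 3 calls, beside 922 of all genes. Dnmt3a passed under all 28 alternatives, with adjusted p of at most 0.00914.

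**Figure D3:**
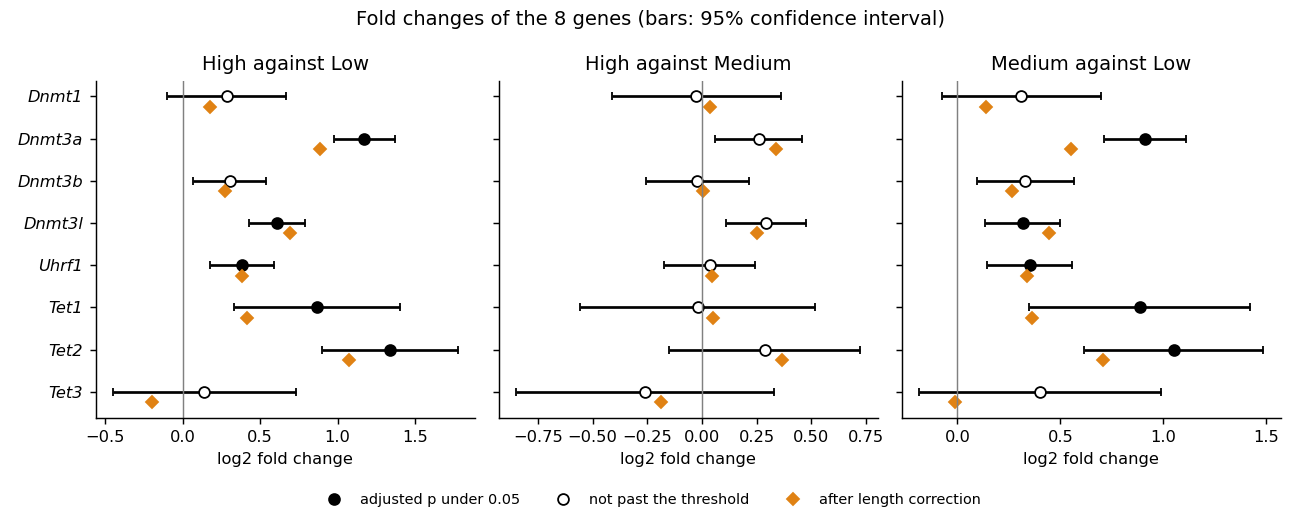
Log2 fold change (x axis) of each gene for High against Low, High against Medium and Medium against Low, with 95% confidence intervals; filled points passed the adjusted threshold and diamonds show the value after the transcript length correction. The left and right panels hold 5 filled points each and the middle panel none, and the diamonds of Tet1 lie at 0.41 and 0.36 beside 0.87 and 0.89.

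Between High and Medium, 0 of 8 genes passed, where 0.407% of all genes did. Dnmt3l and Dnmt3a had an unadjusted p under 0.05, as did 10.9% of all genes, and in both all High libraries lay above all Medium ones, as in 9.34% of all genes. The log2 fold change was 0.29 ± 0.08 for Dnmt3l (limma adjusted p = 0.179) and 0.26 ± 0.09 for Dnmt3a (adjusted p = 0.296). DESeq2 on recovered reads and the length correction called Dnmt3l, at adjusted p = 0.0385 and 0.0437. Tet2 had 0.29, with an interval from -0.15 to 0.72. Uhrf1 (0.03), Tet1 (-0.02), Dnmt3b (-0.02) and Dnmt1 (-0.03) had intervals that spanned 0, as did Tet3 at -0.26.

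On the linear scale Medium lay 46.6% of the way from Low to High for Dnmt3l, 70.3% for Dnmt3a, 70.4% for Tet2, 89.7% for Uhrf1, 102% for Tet1 and 109% for Dnmt3b. On the log2 scale, Medium departed from the midpoint between the other populations by 0.33 ± 0.08 for Dnmt3a (limma adjusted p = 0.709), and by 0.11 after the length correction. Tet2, Tet1 and Dnmt3l departed by 0.38, 0.45 and 0.01, and after the length correction by 0.17, 0.16 and 0.097. Of all 13499 genes 0 passed this test in limma, where 766 (5.67%) had an unadjusted p under 0.05. edgeR also called 0, and DESeq2 17, among them Dnmt3a (adjusted p = 0.0358).

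Ratios between enzymes within a library do not depend on how the library was scaled, though long and short genes still differ in them. They are not per length, so only their change between populations is read. The log2 ratio of Dnmt3b to Dnmt3a was 1.48, 1.46 and 1.40 in Low, 0.93, 0.78 and 0.86 in Medium, and 0.65, 0.59 and 0.49 in High. It fell by 0.87 from Low to High with no overlap between any populations, so the uncorrected ratio of the 2 catalytic de novo enzymes was not constant in these libraries. The ratios were not corrected for length. After the length correction High against Low was 0.89 for Dnmt3a and 0.27 for Dnmt3b, a smaller gap. On the median coding transcript these were 1.25 and 0.22, a larger gap. The log2 ratio of Tet2 to Tet1 went from -2.63 ± 0.12 in Low to -2.14 ± 0.13 in High, a difference of 0.49, and that of Tet3 to Tet1 from -5.16 ± 0.10 to -5.87 ± 0.08, a difference of -0.71. High and Low did not overlap in either. With the length correction High against Low was 1.07 for Tet2, 0.41 for Tet1 and -0.20 for Tet3. By the median coding transcript these were 1.21, 0.94 and -0.044, so the size of both differences depends on the length used. The ratio of Uhrf1 to Dnmt1 differed by 0.10, with a log2 ratio of 0.11 in Low replicate 1 and 0.58 and 0.48 in the other two. An exact two-sided permutation test gave p = 0.1 for each of the first 3 ratios, the smallest value that 3 against 3 allows, and p = 0.7 for Uhrf1 to Dnmt1; adjusted over the 4 ratios these are 0.133 and 0.7.

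**Figure D4:**
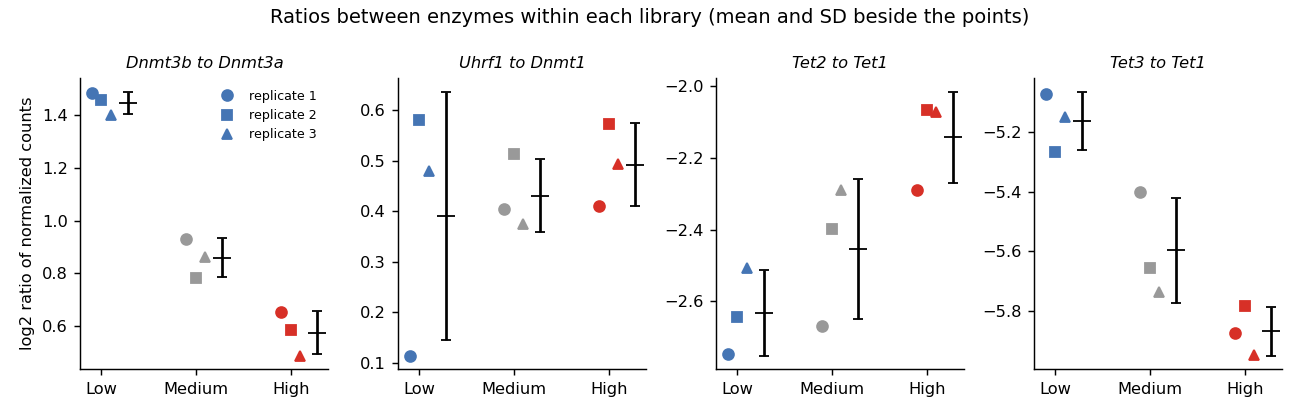
Log2 ratio of normalized counts (y axis) for 4 pairs of enzymes in each library (points, shaped by replicate), with mean and SD beside them; each panel has its own axis. The ratio of Dnmt3b to Dnmt3a steps down from Low through Medium to High, whereas that of Uhrf1 to Dnmt1 spreads widely in Low.

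The other genes of the pathway were read from lists by role. These lists are described by counts beside the 13.8% of all genes that were higher and 14.6% that were lower. Alternatives move that background too: of the 13499 genes, 2599 rose and 2547 fell with the length correction, and 2728 rose and 2511 fell with the replicate block. Leaving out Low replicate 1, 2 or 3 gave 3066, 1440 and 1120 rises and 2780, 1617 and 1225 falls. Libraries rescaled to the same total gave 1481 rises and 2213 falls. Of 19 partners that guide methyltransferases to their targets, 7 rose in High against Low and 0 fell, with a median log2 fold change of 0.32. Zfp57, a zinc finger protein that protects methylation at imprinted regions, rose 2.66-fold from 187 ± 3.11 to 495 ± 11.2 (log2 fold change 1.40 ± 0.11). The histone methyltransferase genes Nsd1, Setd2 and Ehmt2 had 0.77, 0.58 and 0.50. Nsd1 and Setd2 make marks on histone H3 that recruit Dnmt3 enzymes, and their changes were 0.37 and 0.36 after the length correction; their calls were lost in 12 and 9 of 28 alternatives, those of Zfp57 and Ehmt2 in 0. Zfp445, another imprinting zinc finger, had 1.27 but varied widely in Low, at 23.6 ± 20.4, and did not pass (adjusted p = 0.0982). The number of rises in this list was 4 without Low replicate 2, 4 without Low replicate 3, 11 without Low replicate 1 and 12, with 1 fall, with the replicate block.

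Regulators of the enzymes went in both directions. Of 14 analysed, 6 rose and 3 fell. Dppa3, which keeps Uhrf1 away from chromatin, fell from 139 ± 29.8 in Low to 28.7 ± 3.30 in High (log2 fold change -2.22 ± 0.16), a direction opposite to that of Uhrf1. Prdm14, a repressor of the Dnmt3 genes, fell by 0.45 on the log2 scale (20.9 ± 2.49 to 15.02 ± 1.83) and Cxxc5, a CXXC protein, by 0.28. Hcfc1, Wt1, Zfp281 and Cxxc1, a CXXC protein that binds unmethylated CG, rose with log2 fold changes of 0.67, 0.64, 0.41 and 0.36. The calls for Dppa3 and Cxxc1 held under all 28 alternatives; those for Prdm14, Cxxc5, Hcfc1, Wt1 and Zfp281 were lost in 6, 8, 13, 3 and 7 of them. The list gave 3 rises and 1 fall without Low replicate 2, 2 rises and 1 fall without Low replicate 3, and 3 rises and 3 falls with libraries rescaled to the same total.

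Of 11 readers of methylated DNA 1 rose and 0 fell: Zbtb38, a zinc finger reader, at 0.47 on the log2 scale and at 0.28 after the length correction (adjusted p = 0.0504), with calls lost in 8 of 28 alternatives. With the length correction 1 reader other than Zbtb38 rose and 4 fell. Of 14 genes of base excision repair and the Gadd45 family, 1 rose and 3 fell. Tdg, the glycosylase that removes the oxidised bases TET enzymes make, had 0.01 ± 0.07 (adjusted p = 0.962). Parp1 rose by 0.47, Gadd45g fell by 1.49 (36.4 ± 9.02 to 12.4 ± 3.24), and the glycosylases Ung and Neil3 fell by 0.45 and 0.43. Gadd45g and Ung passed under all alternatives; the calls for Parp1 and Neil3 were lost in 5 of 28 and 11 of 27. Rises in this list numbered 3 and falls 4 with the replicate block, and 0 and 2 without Low replicate 3.

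Metabolism of the methyl donor and of 2-oxoglutarate, which the TET enzymes consume, changed in 3 of 24 genes, of which 2 rose and 1 fell. The transaminase Got2 rose by 0.25 on the log2 scale, and the serine synthesis gene Psat1 fell by 0.39. Psat1 passed under all 28 alternatives, while the call for Got2 was lost in 6. Mat2a, which makes S-adenosylmethionine, had 0.24 ± 0.08 and missed the threshold (adjusted p = 0.0509). With the length correction 8 of 24 rose and 1 fell, and with the replicate block 5 rose and 1 fell, beside the counts over all genes given above.

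**Figure D5:**
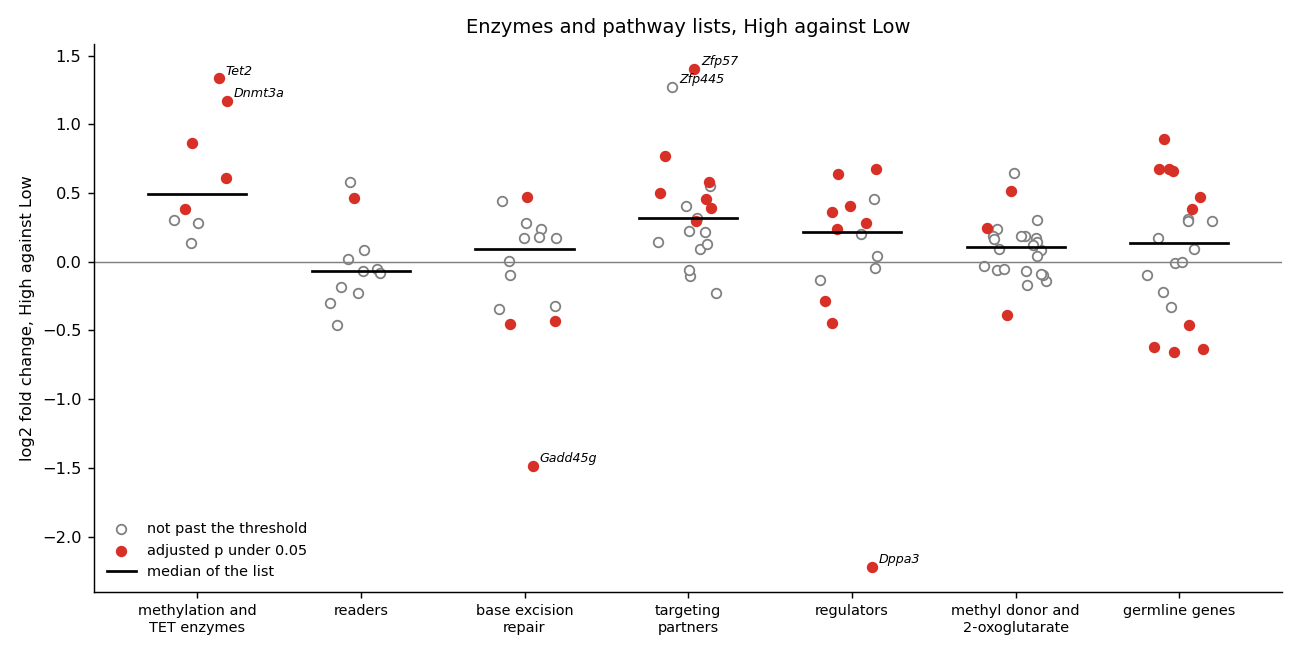
Log2 fold change of High against Low (y axis) for every analysed gene of the enzymes and the role lists (x axis); filled points passed the adjusted threshold, lines are list medians, and genes beyond 1 in either direction are named. The enzymes and the targeting partners have the highest medians, 0.50 and 0.32, and Dppa3 and Gadd45g lie lowest.

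The genes with the level profile most like each enzyme that rose were found by Pearson's r of log2 values over the 9 libraries, as a description. For Dnmt3a they were Irf2bpl and Esyt1 (r = 0.998 for each), for Dnmt3l Ccbl2 and Pnp2 (0.994 and 0.992) and for Uhrf1 Plcb3 and Ctbp2 (0.997 and 0.996). For Tet1 they were Map1b and Aff4 (0.996 and 0.995), whose longest transcripts of 11808 and 10099 nt are also long, and for Tet2 Gltscr1l and Lrrc16a (0.995 and 0.994, or 6575 and 4988 nt). Within the set, Dnmt3a was most like Tet2 (0.956), Uhrf1 like Tet2 (0.967) and Dnmt3b (0.963), and Dnmt3l like Dnmt3a (0.889). These points share libraries, population differences and the length trend.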

How the data were processed

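The authors deposited 1 table of normalized read counts, a signal similar in scale to CPM, from 61 nt single-end reads. Tools listed in the submitters' processing notes are Picard, cutadapt, RSEM (1.17) and limma, without their roles. Genome build, annotation and strand: not given in the sources used here. In 100% of cases a deposited signal was a whole multiple of the value of 1 read, within 0.001 read, so whole reads could be recovered. 85 genes had no name, with 1.71% to 2.53% of the signal, and stayed in the tests.

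R 4.3.3 and limma 3.58.1, with its variance trend, were used for the tests. They ran on log2 of the deposited signal plus a pseudocount of 1 CPM of the library's total, with no further scaling, over all 9 libraries and with population as the only term. Such fold changes understate the change of low genes. All 13499 genes reached 1 CPM in at least 3 libraries and were tested, with Benjamini-Hochberg adjustment over all of them and a threshold of 0.05. P-values measure the spread between these libraries. Replicates differed by more than counting noise. Alternatives covered pseudocount, filter, normalization, weights, left-out libraries, the replicate block, a transcript length correction, edgeR 4.0.16 and DESeq2 1.42.0 on recovered reads, which called 3665 and 3870 genes for High against Low beside limma's 3832. The length correction removed, per library, a lowess trend (span 0.3) of log2 value on the longest transcript of GENCODE M21 (GRCm38), which matched 99.36% of genes. Coordinates are from that annotation.

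Labels share replicate numbers across populations. Deviations of same-numbered High and Low libraries from their means correlated at 0.527, 0.257 and 0.179, above the preset 0.1, so a paired fit is given beside those results where it changes a call; libraries of other numbers reached 0.309. The limit was not met by High with Medium (0.349, 0.166 and -0.044), nor by Medium with Low (0.245, 0.432 and -0.112).

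The genes and lists were chosen with earlier results of these data known. Named list genes are those called for High against Low, up to 4 in each direction by size, and any called for High against Medium or the departure of Medium (there were 0); the 2 most alike named genes by r are given for each enzyme called for High against Low. Tdg, Mat2a and Zfp445 were added after their values were seen. Some list genes are counted but not reported here by name. Scripts were tested on simulated data.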

Additional observations from a re-analysis of the deposited data

How the results depend on the processing

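Directions of Dnmt3a, Dnmt3l, Uhrf1, Tet1, Tet2, Dnmt1 and Dnmt3b for High against Low were the same in all 28 alternatives. Some of these cannot change that limma fold change: either filter setting, the replicate block, only the 2 groups compared, and leaving out a Medium library. Fitting with no filter removes no gene and repeats the main fit. Alternatives without an own description above were added after seeing the data: gene-by-gene library weights, edgeR with the replicate block, the length correction without Low replicate 1 or on the median coding transcript, and leaving out Low replicates 1 and 2 together. Counts below are genes of the set called, then all genes.

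For High against Low, 5 genes of the set became 8 with library weights, which did not converge, and 3 to 7 with 1 library left out. All 3832 calls became 2495 with a filter of 10 CPM, 5991 with the length correction and replicate block, 6119 with the length correction without Low replicate 1, 9129 with library weights, 7850 gene by gene, and 2345 to 5846 with 1 library left out. For Medium against Low, the set gave 3 with libraries rescaled to the same total, 3 with quantile normalization, 2 with only the 2 groups compared, 8 with either kind of library weights, and 1 to 8 with 1 library left out. All 1621 calls became 2724 with the length correction, 3656 with the replicate block, 3800 with the replicate block and length correction, 3420 with edgeR and the block, 4460 with the length correction without Low replicate 1, 656 with the 2 groups only, 8784 and 7044 with weights, and 527 to 5123 with 1 library left out.

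For High against Medium, the set gave 0 and 0 to 0 with 1 library left out, 1 with DESeq2, 1 with either length correction, 3 with the length correction and block or without Low replicate 1, and 2 with either weights. All 55 calls became 260 with DESeq2, 313 and 201 with the length corrections, 504 with the replicate block added, 463 without Low replicate 1, 203 with the replicate block in limma or edgeR, 170 with the 2 groups only, 179 without Low replicates 1 and 2, 1080 and 801 with weights, and 11 to 206 with 1 library left out. For the departure of Medium, the set gave 1 with DESeq2, 7 and 3 with weights and 0 with 1 library left out; all 0 calls became 17 with DESeq2, 2 with the length correction with or without block, 94 without Low replicate 1 as well, 1 with the replicate block, 3436 and 1153 with weights, and 0 to 68 with 1 library left out.

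Signs that turned belonged to values that had not passed. With the length correction on the longest transcript, with or without the block, High against Medium turned to 0.036 for Dnmt1, 0.0061 for Dnmt3b and 0.052 for Tet1, Tet3 for High against Low to -0.20 (-0.11 without Low replicate 1) and Tet3 for Medium against Low to -0.0100. On the median coding transcript Dnmt1 and Dnmt3b turned to 0.040 and 0.023 and Tet3 for High against Low to -0.044. The departure of Dnmt3l turned to -0.028 and -0.026 with the weights and -0.017 with quantile normalization. With 1 library left out, High against Medium ran from -0.094 to 0.0069 for Dnmt1, -0.080 to 0.028 for Dnmt3b and -0.18 to 0.072 for Tet1, Tet3 for High against Low from -0.054 to 0.44, the departure of Dnmt3l from -0.019 to 0.041, and the ratio of Uhrf1 to Dnmt1 from -0.038 (without Low replicate 1) to 0.20. The other 3 ratios kept their sign in all 8 alternatives. The causes were not tested. The replicate block changed no other call of the set than that of Dnmt3b, for High against Low and for Medium against Low (adjusted p = 0.0189). Depth limits Tet3 most.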

Other observations

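Germline genes, many of which are silenced by promoter methylation in somatic cells, moved in both directions between High and Low. Of 20 analysed, 6 rose and 4 fell, beside 13.8% and 14.6% of all genes, and their median log2 fold change was 0.13. The meiotic chromosome gene Sycp1 rose 1.98-fold from 6.41 ± 0.770 to 12.7 ± 1.53 (limma adjusted p = 0.000762), and Mael, of the piRNA pathway, 1.64-fold from 8.43 ± 1.08 to 13.8 ± 1.29 (adjusted p = 0.00333). Tuba3a and Rpl10l had log2 fold changes of 0.67 and 0.68; each has close copies elsewhere in the genome, so reads may have been split between copies. Sycp3, a partner of Sycp1 in meiotic chromosomes, fell from 17.1 ± 4.85 to 10.3 ± 1.24 (log2 fold change -0.65), opposite to Sycp1, and Tdrkh, Taf7l and Tdrd1 had -0.63, -0.62 and -0.46. Sycp1, Mael, Tuba3a and Rpl10l passed under all 28 alternatives, while the calls for Sycp3, Tdrkh, Taf7l and Tdrd1 were lost in 6 of 28 and in 2, 7 and 12 of 27. Without Low replicate 3 the list had 4 rises and 0 falls, and without Low replicate 2 6 rises and 1 fall.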
